A study of Homo sapiens with 16 samples.

Results

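Neurofilament and neuronal marker transcripts were examined in a lung cancer line with and without a mutant p53. The set holds 6 genes, NEFL, NEFM, NEFH, INA, ELAVL3 and TUBB3, of 56865 genes with transcripts in the expression tables. They were selected for being lower in untreated cells that carry p53 Y220C than in untreated p53-null cells, so that difference is described here without a test. Poly(A) RNA was sequenced in 16 libraries, 4 per group. The groups were NCI-H1299 stably expressing p53 Y220C and exposed to 10 µM MS78 for 24 h (Y220C MS78), the same cells in DMSO (Y220C DMSO), p53-null NCI-H1299 exposed to 10 µM MS78 for 24 h (Null MS78) and p53-null cells in DMSO (Null DMSO). NCI-H1299 derives from a human lung tumour of the non-small cell type and makes no p53 of its own, and MS78 is an acetylation targeting chimera that binds p53 Y220C and recruits an acetyltransferase to it. The Y220C cells were kept in 500 µg/mL G418 and the null cells were not, so the transgene, the selection drug and any difference between the 2 cultures cannot be told apart. The labels do not say whether the Y220C line is a single clone, or whether replicates came from separate cultures, and p-values measure the spread between these libraries only.

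Neurofilaments are the intermediate filaments of neurons. They are built from the light, medium and heavy chains (NEFL, NEFM, NEFH) together with alpha-internexin (INA), and they set the calibre of large axons. TUBB3 is the neuronal class of beta-tubulin, a subunit of microtubules that is also made by many carcinomas, and ELAVL3 is a neuronal RNA-binding protein of the Hu family that binds AU-rich elements and guides splicing in maturing neurons. Many neuronal genes are held off in other cells by the repressor REST, which works with the RCOR corepressors, histone deacetylases and the histone demethylase KDM1A.

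Sequence stretches of the genes that carry most of the result are shown first, all in the GRCh38 build. NEFH (ENSG00000100285, chromosome 22, 29480230 to 29491390, plus strand) has a long tail that encodes lysine-serine-proline repeats, the sites that are heavily phosphorylated in axons. The 8-base word AAGTCCCC, which encodes the core of such a repeat, occurs 26 times in the 3060 coding bases of its annotated transcript, 25 of them in the reading frame. The 120 coding bases with most copies hold 6, in capitals, at chr22:29489570-29489689 on the plus strand.
NEFH: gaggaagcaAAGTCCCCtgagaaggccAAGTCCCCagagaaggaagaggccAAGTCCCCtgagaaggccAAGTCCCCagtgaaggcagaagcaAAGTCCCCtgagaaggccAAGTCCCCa

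TUBB3 (ENSG00000258947, chromosome 16, 89921392 to 89938761, plus strand) differs from TUBB and TUBB4B at its end and also elsewhere in its coding sequence. Over the coding sequence it shared 82.7% of aligned bases with TUBB and 85.1% with TUBB4B, which are the common beta-tubulins of dividing cells. The longest identical run was 35 bases with TUBB, 140 with TUBB4B and 185 with TUBB2A and with TUBB2B, so reads that fall inside those runs cannot be assigned by sequence alone. The last coding bases before the stop codon are shown from the base that aligns 81 bases before the end of TUBB3. They lie at chr16:89935721-89935801 for TUBB3, at chr6:30724332-30724394 for TUBB and at chr9:137243488-137243553 for TUBB4B, all on the plus strand. Capitals in TUBB3 mark bases that differ from TUBB or have no partner there, and capitals in TUBB and TUBB4B mark bases that differ from TUBB3.
TUBB3: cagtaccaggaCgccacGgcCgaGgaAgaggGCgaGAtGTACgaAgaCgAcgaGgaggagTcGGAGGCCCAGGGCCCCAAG
TUBB: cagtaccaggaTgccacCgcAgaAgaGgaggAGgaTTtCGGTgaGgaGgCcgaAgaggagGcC
TUBB4B: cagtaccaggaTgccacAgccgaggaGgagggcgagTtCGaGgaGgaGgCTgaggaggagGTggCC

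ELAVL3 (ENSG00000196361, chromosome 19, 11451326 to 11481046, minus strand) shared 70.7% of aligned coding bases with ELAVL1, the family member found in all cells, and no identical run of more than 23 bases. The 60 coding bases with the fewest differences between them are shown, at chr19:11454589-11454648 for ELAVL3 and chr19:7963543-7963602 for ELAVL1, both on the minus strand, with the 7 differing bases in capitals.
ELAVL3: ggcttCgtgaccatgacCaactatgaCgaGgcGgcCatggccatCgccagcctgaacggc
ELAVL1: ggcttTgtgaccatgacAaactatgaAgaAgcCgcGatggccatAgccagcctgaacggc

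INA (ENSG00000148798, chromosome 10, 103277163 to 103290351, plus strand) and TUBB3 were the abundant members, and their promoters are shown for that reason. RefSeq's promoter table (GRCh38.p14) held 1 window for INA and 2 for TUBB3, and the TUBB3 window used is the one nearest the start of its most abundant transcript. The INA window of 250 bases before the start, chr10:103276888-103277137, held the GC box GGGCGG 4 times on either strand, in capitals, and 72.8% of its bases were G or C. Of 35116 promoter windows of that length, 42.6% held the GC box at least once and the median content of G and C was 58%. The TUBB3 window was 78% G or C and held 3 GC boxes. Its first 187 bases, chr16:89923092-89923278, which lie before the first exon that GENCODE 29 places there, are shown with 2 of them in capitals. The sequence CCAAT was found once in the TUBB3 window and not in that of INA, against 32.01% of all windows, and TTCAGCACC, the left part of the REST element, was found in neither, against 0.288% of all windows. These motifs do not overlap one another, both strands were searched, and a match or its absence in a window says nothing about binding.
INA: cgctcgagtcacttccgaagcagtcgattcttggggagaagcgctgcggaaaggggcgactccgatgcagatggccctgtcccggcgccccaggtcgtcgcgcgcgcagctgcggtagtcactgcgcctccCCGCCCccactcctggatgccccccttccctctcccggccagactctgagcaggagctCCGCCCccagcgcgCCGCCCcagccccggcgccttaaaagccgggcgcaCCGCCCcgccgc
TUBB3: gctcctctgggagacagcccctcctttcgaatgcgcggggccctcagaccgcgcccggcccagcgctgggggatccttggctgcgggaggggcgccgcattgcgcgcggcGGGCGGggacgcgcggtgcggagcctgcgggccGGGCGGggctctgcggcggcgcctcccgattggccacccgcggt

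The libraries held 20317427 to 27746943 estimated reads each, and levels are given as CPM, the reads of a gene scaled to the TMM-adjusted library size. The 9 genes listed as lung and epithelial markers were low in all groups, with a sum of 3.07 to 9.53 CPM. KRT5, KRT14 and SFTPC were at 1 read or less in every library. The epithelial keratins KRT8 and KRT18, listed with the intermediate filaments, were abundant, at means of 232 and 365 CPM over the 16 libraries. Of the 12 glial markers, S100B, SOX10 and ALDH1L1 had 1 read each over all 16 libraries. CNP, MBP and OLIG2 were present, at means of 65.3, 25.2 and 1.54 CPM. Reads of PTPRC, which encodes the leukocyte protein CD45, numbered 55 to 99 in 8 libraries (replicate 1 of both DMSO groups and replicates 2 to 4 of both MS78 groups) and 0 or 1 in the other 8. The summed level of 16 leukocyte markers was 73.8 to 187 CPM in Y220C MS78, 61.6 to 119 CPM in Y220C DMSO, 100.3 to 213 CPM in Null MS78 and 86.4 to 131 CPM in Null DMSO. The sum was 119 to 213 CPM in the libraries with PTPRC reads and 61.6 to 100.3 CPM in those without. Much of it was CD68, present in every library, with a mean of 75.2 CPM over the 16 libraries against 1.72 CPM for PTPRC. In a fit with a term for the libraries with PTPRC reads, the adjusted p of that term was 0.859 or more for each of the 6 genes by edgeR's quasi-likelihood test.

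**Figure D1:**
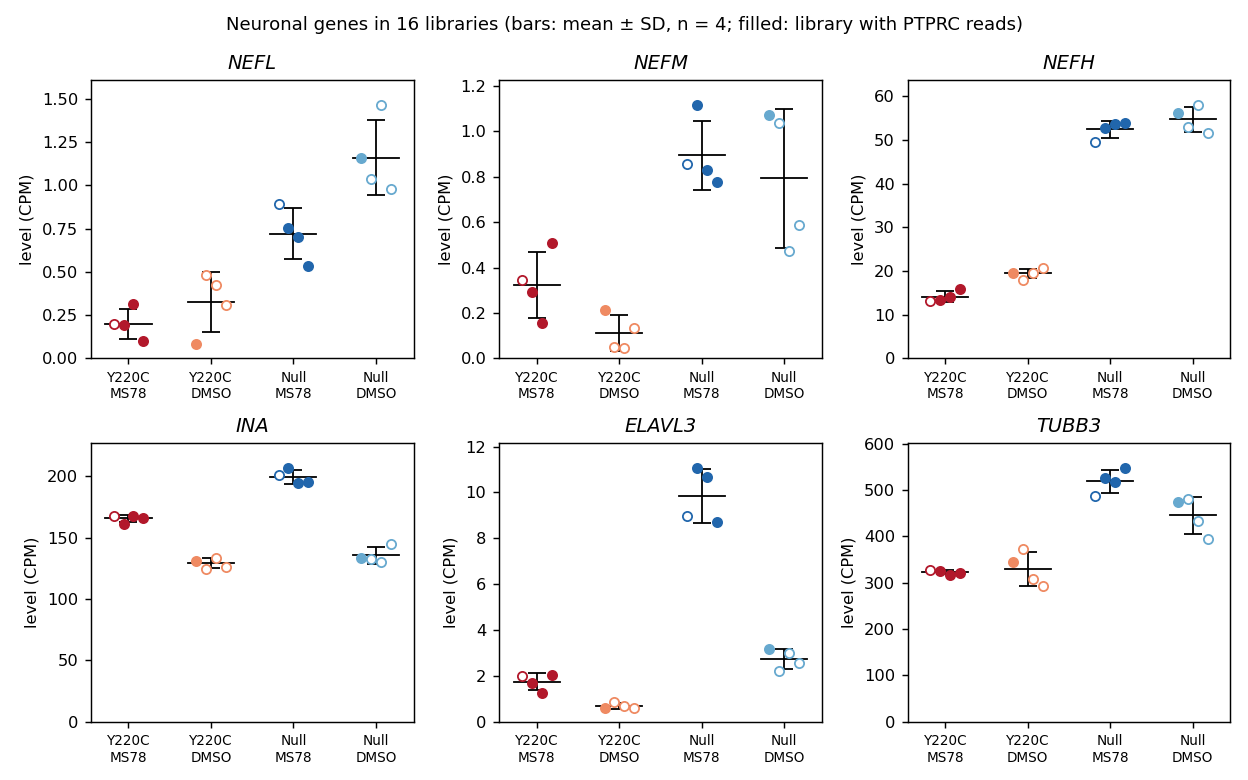
Level of each gene in CPM on a linear axis in the 16 libraries, with the mean and SD of each group of 4 as bars and libraries with PTPRC reads as filled points. The Null points lie above the Y220C points of the same treatment in every panel except INA under DMSO, where 124.8 to 133.6 CPM in Y220C overlap 130.4 to 145.3 CPM in Null.

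In bulk RNA, fewer cells that express a gene and less RNA per cell cannot be told apart. In untreated cells, the comparison on which the genes were selected, 5 of the 6 were lower in Y220C DMSO than in Null DMSO with no overlap between the libraries, and INA was not. Of the 15687 genes tested, 22.2% were lower without overlap in this comparison, and since the members were picked on it nothing is read from the count. The heavy chain NEFH had 18.01, 19.5, 19.6 and 20.6 CPM in Y220C DMSO, against 51.6, 52.8, 56.2 and 58.0 CPM in Null DMSO. The Y220C libraries all lay below the null ones, at 0.36 of their level. ELAVL3 had 0.578, 0.600, 0.704 and 0.869 CPM in Y220C DMSO, against 2.20, 2.55, 3.02 and 3.17 CPM in Null DMSO, with no overlap and a ratio of 0.25. TUBB3 had 292, 308, 344 and 373 CPM in Y220C DMSO, against 395, 432, 475 and 480.4 CPM in Null DMSO. Its groups lay close, with the highest Y220C library just under the lowest null library, and the ratio was 0.74.

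The light and medium chains were near the limit of detection in untreated cells. NEFL (ENSG00000277586, chromosome 8, 24950955 to 24957110, minus strand) had 2 to 10 reads per library in Y220C DMSO, against 24 to 34 reads in Null DMSO. NEFM (ENSG00000104722, chromosome 8, 24913012 to 24919098, plus strand) had 1 to 5 reads in Y220C DMSO, against 11 to 25 reads in Null DMSO. A floor of 3 reads corresponds to 0.108 to 0.148 CPM, so the lowest Y220C values of both are at or under it. INA, the most abundant of the filament genes, had 124.8, 126.5, 131.3 and 133.6 CPM in Y220C DMSO, against 130.4, 132.7, 133.9 and 145.3 CPM in Null DMSO. The groups overlapped, with a ratio of 0.95, and INA is therefore the member that just satisfies the selection in its mean and goes against it in its libraries. In TPM, which also corrects for transcript length, all 6 were lower without overlap, INA by the smallest gap, 50.1 to 55.0 TPM in Y220C DMSO against 55.1 to 62.0 TPM in Null DMSO.

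The same line difference was then measured in the 8 MS78-treated libraries, which the selecting comparison had not used. These libraries come from the same 2 lines, and the members were chosen with earlier results of these data known. The comparison is therefore not an independent check of the selection. All 6 genes were lower in Y220C MS78 than in Null MS78 and passed edgeR's quasi-likelihood test, in a comparison where 31.2% of the 15687 tested genes were lower and 30.7% higher. NEFL and NEFM had enough reads for the filter on low counts only in the null groups, so they were tested only because they were higher there, and their calls are given as a description. ELAVL3 had 1.25, 1.70, 2.01 and 2.03 CPM in Y220C MS78, against 8.73, 8.98, 10.7 and 11.05 CPM in Null MS78. The 2 groups were far apart, and the log2 fold change was -2.49 (SE 0.15, adjusted p = 2.05e-11). NEFH had 13.2, 13.4, 14.1 and 15.8 CPM in Y220C MS78, against 49.4, 52.6, 53.7 and 53.8 CPM in Null MS78. Its libraries varied little within each group and the log2 fold change was -1.89 (SE 0.06, adjusted p = 5.08e-16).

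TUBB3 had 317, 321, 326 and 327 CPM in Y220C MS78, against 486, 517, 526 and 547 CPM in Null MS78. Every Y220C library was below every null library, and the log2 fold change was -0.69 (SE 0.07, adjusted p = 1.50e-08). INA had 162, 166, 168 and 168 CPM in Y220C MS78, against 194, 195, 201.3 and 207 CPM in Null MS78. This was the smallest of the 6 differences, a log2 fold change of -0.27 (SE 0.04, adjusted p = 3.70e-06), but its groups did not overlap.

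NEFL had 2, 4, 4 and 6 reads in Y220C MS78, against 11, 17, 21 and 23 reads in Null MS78, that is 0.201 ± 0.087 CPM against 0.722 ± 0.149 CPM (SD, n = 4 each). Its log2 fold change was -1.83 (SE 0.42, adjusted p = 0.000784). NEFM had 3, 6, 7 and 10 reads in Y220C MS78, against 16, 20, 22 and 31 reads in Null MS78, or 0.325 ± 0.145 CPM against 0.894 ± 0.152 CPM. Its log2 fold change was -1.45 (SE 0.40, adjusted p = 0.00371). From the pooled reads, the ratio of Y220C MS78 to Null MS78 was 0.274 for NEFL (95% interval 0.149 to 0.475) and 0.360 for NEFM (0.223 to 0.562), with exact intervals that cover counting error only. Within the 2 libraries without PTPRC reads, a single library per group whose spread is taken from the other groups, the calls of NEFL (adjusted p = 0.0550), NEFM (0.289) and INA (0.0798) were lost while the directions were kept, and within the 6 libraries with PTPRC reads all 6 were called.

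**Figure D2:**
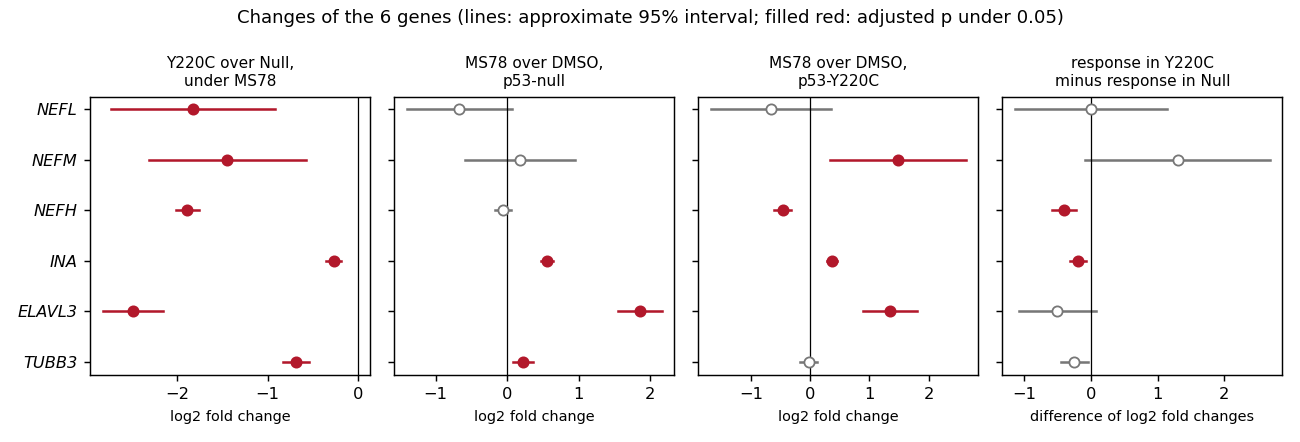
Log2 fold changes of the 6 genes in 3 comparisons, and in the last panel the difference between the responses of the 2 lines to MS78, with approximate 95% intervals from the edgeR fit as lines. Filled red points passed an adjusted p of 0.05. All 6 lie left of 0 for the line difference under MS78, from -2.49 for ELAVL3 to -0.27 for INA.

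In the p53-null cells, which lack the intended target of MS78, MS78 changed ELAVL3, INA and TUBB3 and none of the neurofilament chains by the test. These 3 of 6 were higher under MS78, in a comparison where 14.8% of tested genes were higher and 13.3% lower. The DMSO libraries used here are among those on which the genes were selected. ELAVL3 had 8.73, 8.98, 10.7 and 11.05 CPM in Null MS78, against 2.20, 2.55, 3.02 and 3.17 CPM in Null DMSO, a 3.61-fold difference with no overlap (log2 fold change 1.85, SE 0.14, adjusted p = 2.15e-09). INA had 194 to 207 CPM in Null MS78, against 130.4 to 145.3 CPM in Null DMSO, and rose 1.47-fold (log2 fold change 0.56, SE 0.04, adjusted p = 3.54e-10). TUBB3 had 486 to 547 CPM in Null MS78, against 395 to 480.4 CPM in Null DMSO, a smaller difference with a narrow gap between the groups (log2 fold change 0.22, SE 0.06, adjusted p = 0.0141). The TUBB3 call was lost without Null DMSO replicate 4 (adjusted p = 0.0694) or Null MS78 replicate 4 (0.0502), with length-scaled TPM (0.212), and within the libraries with PTPRC reads (0.0684) and those without (0.590).

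The neurofilament chains gave no call in null cells. NEFH had 49.4 to 53.8 CPM in Null MS78, against 51.6 to 58.0 CPM in Null DMSO, and the groups overlapped (log2 fold change -0.06, SE 0.05, adjusted p = 0.410). NEFL had 11 to 23 reads in Null MS78, against 24 to 34 reads in Null DMSO. Its libraries did not overlap, but the log2 fold change of -0.67 (SE 0.34) did not pass (adjusted p = 0.153), and its 95% interval ran from -1.40 to 0.06. The pooled NEFL reads, 72 against 110, gave a ratio of 0.634 (exact 95% interval 0.464 to 0.861, counting error only). NEFM overlapped between the groups, with a log2 fold change of 0.18 (SE 0.35, adjusted p = 0.763).

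In the Y220C cells, MS78 left TUBB3 without a call, lowered NEFH, and raised ELAVL3, INA and NEFM. In this comparison 24.9% of tested genes were higher and 23.6% lower, and its DMSO libraries too were used in the selection. ELAVL3 had 1.25, 1.70, 2.01 and 2.03 CPM in Y220C MS78, against 0.578, 0.600, 0.704 and 0.869 CPM in Y220C DMSO. The groups did not overlap and the difference was 2.55-fold (log2 fold change 1.35, SE 0.21, adjusted p = 1.87e-05), and the treated libraries lay below the 2.20 to 3.17 CPM of untreated null cells. With length-scaled TPM the ELAVL3 log2 fold change was 0.50 and the call was lost (adjusted p = 0.335). INA had 162 to 168 CPM in Y220C MS78, against 124.8 to 133.6 CPM in Y220C DMSO, without overlap (log2 fold change 0.36, SE 0.04, adjusted p = 1.24e-07).

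NEFH had 13.2 to 15.8 CPM in Y220C MS78, against 18.01 to 20.6 CPM in Y220C DMSO. Every treated library was below every untreated one, with a log2 fold change of -0.46 (SE 0.07, adjusted p = 6.74e-06). TUBB3 had 317 to 327 CPM in Y220C MS78, against 292 to 373 CPM in Y220C DMSO. The treated libraries lay inside the range of the untreated ones, and the log2 fold change was -0.03 with a 95% interval of -0.17 to 0.11 (adjusted p = 0.742). NEFL, with 2 to 6 reads in Y220C MS78 against 2 to 10 reads in Y220C DMSO, gave no call (log2 fold change -0.67, SE 0.46, adjusted p = 0.251).

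NEFM had 3, 6, 7 and 10 reads in Y220C MS78, against 1, 1, 3 and 5 reads in Y220C DMSO. The groups overlapped, and the pooled reads, 26 against 10, gave a ratio of 2.86 (exact 95% interval 1.34 to 6.65, counting error only). The log2 fold change of 1.48 (SE 0.53, adjusted p = 0.0253) was called, but not without Y220C DMSO replicate 2 (adjusted p = 0.0745), Y220C DMSO replicate 3 (0.0751) or Y220C MS78 replicate 4 (0.0951). It was also not called with a term for PTPRC reads (0.0559), or within the libraries with those reads (0.651) or without them (0.133).

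The response to MS78 differed between the lines for NEFH and INA. The interaction term, the Y220C response minus the null response in log2 units, was called for 2 of the 6 genes, both lower, in a test where 14.4% of genes had a positive and 12.4% a negative call. The interaction contains the DMSO difference between the lines on which the genes were selected, so it is not independent of the selection. It was -0.40 for NEFH (SE 0.08, adjusted p = 0.00126), whose level fell by 0.46 on the log2 scale in Y220C cells and changed by -0.06 in null cells. It was -0.19 for INA (SE 0.05, adjusted p = 0.0103), which rose in both lines and less in the Y220C cells. Both calls were lost within the libraries with PTPRC reads (adjusted p = 0.0882 for NEFH and 0.0885 for INA) and within those without (0.193 and 0.500), at log2 values of -0.34 and -0.42 for NEFH and -0.22 and -0.17 for INA.

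TUBB3 lay at the threshold, with an interaction of -0.25 (SE 0.09, adjusted p = 0.0511). It passed under DESeq2 (0.0308), with no filter on low counts (0.00225), with a filter of 1 CPM (0.0459), with the replicate number as a block (0.0361), when PTPRC reads entered the model (0.0392) and among the 8 libraries holding them (0.0435). It also passed without Null DMSO replicate 1 (0.0369) or 2 (0.0325), Null MS78 replicate 1 (0.0366), and Y220C DMSO replicate 3 (0.0383) or 4 (0.0129). ELAVL3 had an interaction of -0.50 (SE 0.26, adjusted p = 0.173), which with length-scaled TPM was -1.501 and passed (0.0452). The interactions of NEFM (1.30, SE 0.63, adjusted p = 0.141) and NEFL (0.005, SE 0.52, adjusted p = 0.996) did not pass, and the NEFL interval of -1.14 to 1.15 leaves changes of either sign possible.

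Which transcripts and neighbours the reads came from was examined for each gene. INA and NEFH have 1 transcript each in the tables. TUBB3 has 15, and the most abundant, 1769 bases long, held 89.5% to 93.6% of its reads in Y220C MS78, 89.9% to 94.6% in Y220C DMSO, 91.3% to 95.5% in Null MS78 and 89.7% to 94.9% in Null DMSO. A short TUBB3 form of 767 bases varied between libraries of the same group, with 24.2 to 354 reads in Y220C MS78, 14.1 to 443 in Y220C DMSO, 12.3 to 659 in Null MS78 and 106 to 686 in Null DMSO. For ELAVL3, the form of 4729 bases held 100% of reads in every Y220C MS78 library, 75.6% to 100% in Y220C DMSO, 86.8% to 93.6% in Null MS78 and 78.4% to 100% in Null DMSO. A shorter ELAVL3 form of 1223 bases had 0 reads in Y220C MS78 and 0 to 3.66 in Y220C DMSO, against 14.0 to 27.1 in Null MS78 and 0 to 15.98 in Null DMSO. A processed transcript of 466 bases had 0 reads in Y220C MS78, 0 to 1.33 in Y220C DMSO, 0 to 7.02 in Null MS78 and 0 in Null DMSO. A few reads on a short form weigh more in TPM. In Y220C DMSO replicate 1, where the form of 466 bases had 1.33 reads, it held 72.5% of the ELAVL3 TPM and the long form 27.5%.

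Genes that overlap the members held few reads. The readthrough gene AC092143.1, which runs into TUBB3 on the same strand, had 3 to 29 reads in Y220C MS78, 0 to 67 in Y220C DMSO, 40 to 128 in Null MS78 and 9 to 78 in Null DMSO. Its antisense neighbour AC092143.2 had 0 to 47 reads in Y220C MS78, 35 to 76 in Y220C DMSO, 69 to 159 in Null MS78 and 74 to 97 in Null DMSO. TUBB3 itself had 6082 to 14604 reads per library, but no strand setting is stated, so reads of the overlap could have been split. AF106564.1, antisense to NEFM, had 0 to 1 reads in Y220C MS78, 0 to 5 in Y220C DMSO, 3 to 7 in Null MS78 and 1 to 3 in Null DMSO, which is not small beside the reads of NEFM itself.

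Per length, INA was by far the main neuronal filament transcript in all groups and the light chain was among the rarest. In Y220C MS78 the mean levels were 66.1 TPM for INA, 4.73 TPM for NEFH, 2.07 TPM for the peripheral neuron filament PRPH, 0.185 TPM for NEFM and 0.103 TPM for NEFL. In Null MS78 they were 83.0 TPM for INA, 18.3 TPM for NEFH, 1.43 TPM for PRPH, 0.609 TPM for NEFM and 0.263 TPM for NEFL. INA made up 90.3% ± 0.9 of the summed TPM of these 5 genes in Y220C MS78, 84.8% ± 1.0 in Y220C DMSO, 80.1% ± 0.8 in Null MS78 and 72.5% ± 2.2 in Null DMSO (SD, n = 4 each). NEFH made up 6.45% ± 0.50, 10.7% ± 0.6, 17.7% ± 0.9 and 24.6% ± 1.7 in the same 4 groups, in that order. The share of NEFH was lower in every Y220C library than in any null library, and lower under MS78 than under DMSO in both lines without overlap, which in null cells came with a rise of INA at an NEFH level that gave no call.

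The beta-tubulins, given as a whole family chosen after their values were seen, changed unequally. Their summed level was 1214 ± 30 TPM in Y220C MS78, 1859.7 ± 39.4 TPM in Y220C DMSO, 1808 ± 56 TPM in Null MS78 and 2443 ± 64 TPM in Null DMSO. TUBB, the main form, was at 404 ± 9 TPM in Y220C MS78, 730.2 ± 18.7 TPM in Y220C DMSO, 717 ± 4 TPM in Null MS78 and 1137 ± 35 TPM in Null DMSO. In the edgeR fit TUBB fell under MS78 by 0.81 (SE 0.03, adjusted p = 2.92e-14) on the log2 scale in Y220C cells and by 0.63 (SE 0.03, adjusted p = 4.23e-12) in null cells, and TUBB4B fell by 1.00 (SE 0.04) and by 0.61 (SE 0.03). TUBB3 did not fall with them, and its share of the summed beta-tubulin TPM was 23.0% ± 1.3 in Y220C MS78, 15.7% ± 2.0 in Y220C DMSO, 26.3% ± 1.7 in Null MS78 and 17.2% ± 2.0 in Null DMSO. In each line every MS78 library had a higher TUBB3 share than every DMSO library. A higher share was not particular to TUBB3. In Y220C cells the share of TUBB2A was 3.97% under MS78 against 2.45% under DMSO, that of TUBB2B 3.78% against 2.32%, and that of TUBB6 16.7% against 14.3%. There the mean levels of TUBB2A (48.2 against 45.5 TPM) and TUBB2B (45.9 against 43.2 TPM) did not fall. In null cells both were lower in mean under MS78. The differences of the shares were not tested. The levels and shares rest on the authors' TPM, in which the variable form of 767 bases weighs up to 17.9% of TUBB3.

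**Figure D3:**
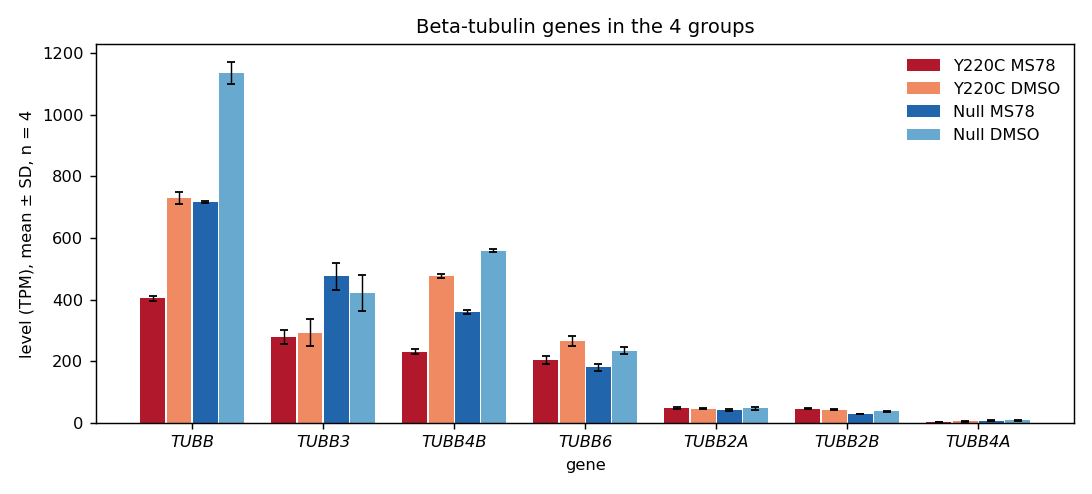
Mean level of the 7 beta-tubulin genes in TPM on a linear axis from 0, with SD over 4 libraries as error bars and the groups as colours. TUBB and TUBB4B are lower under MS78 than under DMSO in both lines, whereas TUBB3 is at 279 and 293 TPM in the Y220C groups and 476 and 422 TPM in the null groups.

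In the ELAV family, the ubiquitous ELAVL1 outweighed ELAVL3 in every group. ELAVL3 made up 5.33% ± 1.19 of the summed ELAV TPM in Y220C MS78, 4.18% ± 2.16 in Y220C DMSO, 30.9% ± 6.9 in Null MS78 and 14.7% ± 5.5 in Null DMSO, so its share was above that of any Y220C library in every null library. ELAVL4, another neuronal member, was at 0 TPM in all 16 libraries. ELAVL2, also neuronal, ran the other way near the floor, with 3 to 9 reads in Y220C MS78 and 3 to 7 in Y220C DMSO. It had 0 to 3 reads in each null group and was not tested. ELAVL1 was itself lower in Y220C MS78 than in Null MS78 (8.93 against 13.4 CPM, log2 fold change -0.59, SE 0.09, adjusted p = 7.96e-06), a call that was lost with length-scaled TPM (adjusted p = 0.296) and within the libraries without PTPRC reads (0.0798).

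Genes whose levels ran most like those of the members were ranked by Pearson's r of log2 CPM over the 16 libraries, among 12225 protein-coding genes at 1 CPM or more. The highest was PLXNA1 for NEFH (r = 0.996), TMEM54 for TUBB3 (0.986), MMP1 for ELAVL3 (0.984), NR4A2 for INA (0.974), SIKE1 for NEFL (0.968) and SLFN11 for NEFM (0.938). Because the 4 groups set most of these values, r was also taken over deviations from the group means. It was then 0.955 for TMEM54 with TUBB3, 0.918 for SIKE1 with NEFL, 0.708 for PLXNA1 with NEFH and 0.559 for NR4A2 with INA. It was 0.503 for SLFN11 with NEFM and 0.220 for MMP1 with ELAVL3. Each gene was picked as the highest on levels that include these deviations. NEFL also had at most 34 reads in a library, so nothing is read from the sizes. The libraries of a group share their culture conditions, and r describes likeness only.

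The repressor REST and its partners were listed because they act on neuronal genes. REST was slightly higher in Y220C MS78, at 49.2, 49.4, 50.3 and 51.8 CPM, against 38.8, 39.9, 40.5 and 42.4 CPM in Null MS78 (log2 fold change 0.31, SE 0.06, adjusted p = 6.02e-05). The groups did not overlap, and the call was lost within the libraries without PTPRC reads (adjusted p = 0.0641). Of 21 genes of the REST complex and its cofactors, 7 were higher and 10 lower in Y220C MS78 than in Null MS78, with a median log2 fold change of -0.11, against 30.7% higher, 31.2% lower and a median of -0.01 over all tested genes. RCOR2, a corepressor, was at -1.65 (SE 0.10, adjusted p = 3.23e-11) and EHMT2, a histone H3 lysine methyltransferase, at -0.88 (SE 0.04, adjusted p = 6.16e-13). In null cells MS78 changed 3 of the 21 (1 higher and 2 lower, median -0.02, against 14.8% higher and 13.3% lower over all tested genes), and REST itself was not called (0.10, adjusted p = 0.183). In Y220C cells 2 were higher and 11 lower under MS78 (median -0.11, against 24.9% higher and 23.6% lower over all tested genes), with REST at 0.17 (SE 0.06, adjusted p = 0.0164) and overlapping groups, a call lost without Y220C DMSO replicate 1 (adjusted p = 0.0800) or 2 (0.0556).

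Other lists drawn up around neuronal genes, chosen with earlier results of these data known, moved in both directions between the lines, where 30.7% of all tested genes were higher and 31.2% lower. The lists are not confined to neuronal genes, and also hold the nuclear lamins and the common beta-tubulin TUBB. Of 33 tested synaptic and secretory genes, 4 were higher and 15 lower in Y220C MS78 than in Null MS78 (median -0.22). SCG2, a secretory granule protein, had 8.95 against 67.2 CPM (log2 fold change -2.91, SE 0.08, adjusted p = 3.87e-17), and SNAP25, a synaptic vesicle fusion protein, was at -1.91 (SE 0.09, adjusted p = 6.11e-13). STX1A, its fusion partner syntaxin, went the other way, with 149.6 against 27.0 CPM (log2 fold change 2.47, SE 0.05, adjusted p = 8.42e-20). Of 28 tubulin and microtubule-associated genes, 5 were higher and 14 lower (median -0.33), among them DPYSL5 at -1.68 (SE 0.18), DPYSL3 at -1.31 (SE 0.04) and STMN3 at -1.31 (SE 0.04), which act on growth cones and microtubules. Of 12 other intermediate filament genes, 3 were higher and 6 lower (median -0.21), with the nuclear lamin LMNB1 at -0.92 (SE 0.03).

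Of 16 tested genes listed as ELAV and other neuronal RNA-binding proteins, 4 were higher and 7 lower in Y220C MS78 than in Null MS78 (median -0.15). The shares over all tested genes were the same 30.7% and 31.2%. This list also holds genes that are not neuronal, such as the ubiquitous ELAVL1. The splicing factors KHDRBS3 and NOVA2 were at -1.24 (SE 0.11) and -0.88 (SE 0.10). PTBP1, which represses neuronal exons, was at 0.19 (SE 0.03) and PTBP2, its neuronal relative, at 0.43 (SE 0.08). Of 19 regulators of neurogenesis, which include the inhibitors HES1, HEY1, ID1, ID2 and ID3, 3 were higher and 11 lower (median -0.30). SOX4 was at -1.49 (SE 0.07), while EBF3 had 2.31 CPM in Y220C MS78 against 0.0623 CPM in Null MS78, the second value being under the floor. EBF3 thus passed the filter on low counts only through groups where it was higher, and its call is given as a description.

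Within each line, MS78 changed members of the lists in both directions. Over all tested genes, 24.9% were higher and 23.6% lower under MS78 in Y220C cells, against 14.8% higher and 13.3% lower in null cells. Of the 33 synaptic genes, 8 were higher and 1 lower in Null MS78 than in Null DMSO (median 0.10, against 0.01 over all tested genes). VGF, a neuropeptide precursor, rose by 0.77 (SE 0.05, adjusted p = 4.37e-10), and ENO2, neuron-specific enolase, by 0.65 (SE 0.08, adjusted p = 2.49e-06). In Y220C cells 8 were higher and 9 lower (median -0.07, against -0.01 over all), with STX1A at 2.06 (SE 0.05) and the granule protein CHGB at -0.86 (SE 0.07). Of the 19 regulators of neurogenesis, inhibitors included, 4 were higher and 6 lower in Y220C cells, against 4 higher and 1 lower in null cells. HES6, a transcription factor that promotes neuronal differentiation, rose in both, by 1.91 (SE 0.09) in Y220C cells and 1.44 (SE 0.08) in null cells. Of the 28 tubulin and microtubule genes, 6 were higher and 13 lower in Y220C cells, against 5 higher and 9 lower in null cells, and DPYSL2 rose by 1.09 (SE 0.04) in Y220C cells and 0.96 (SE 0.04) in null cells.

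**Figure D4:**
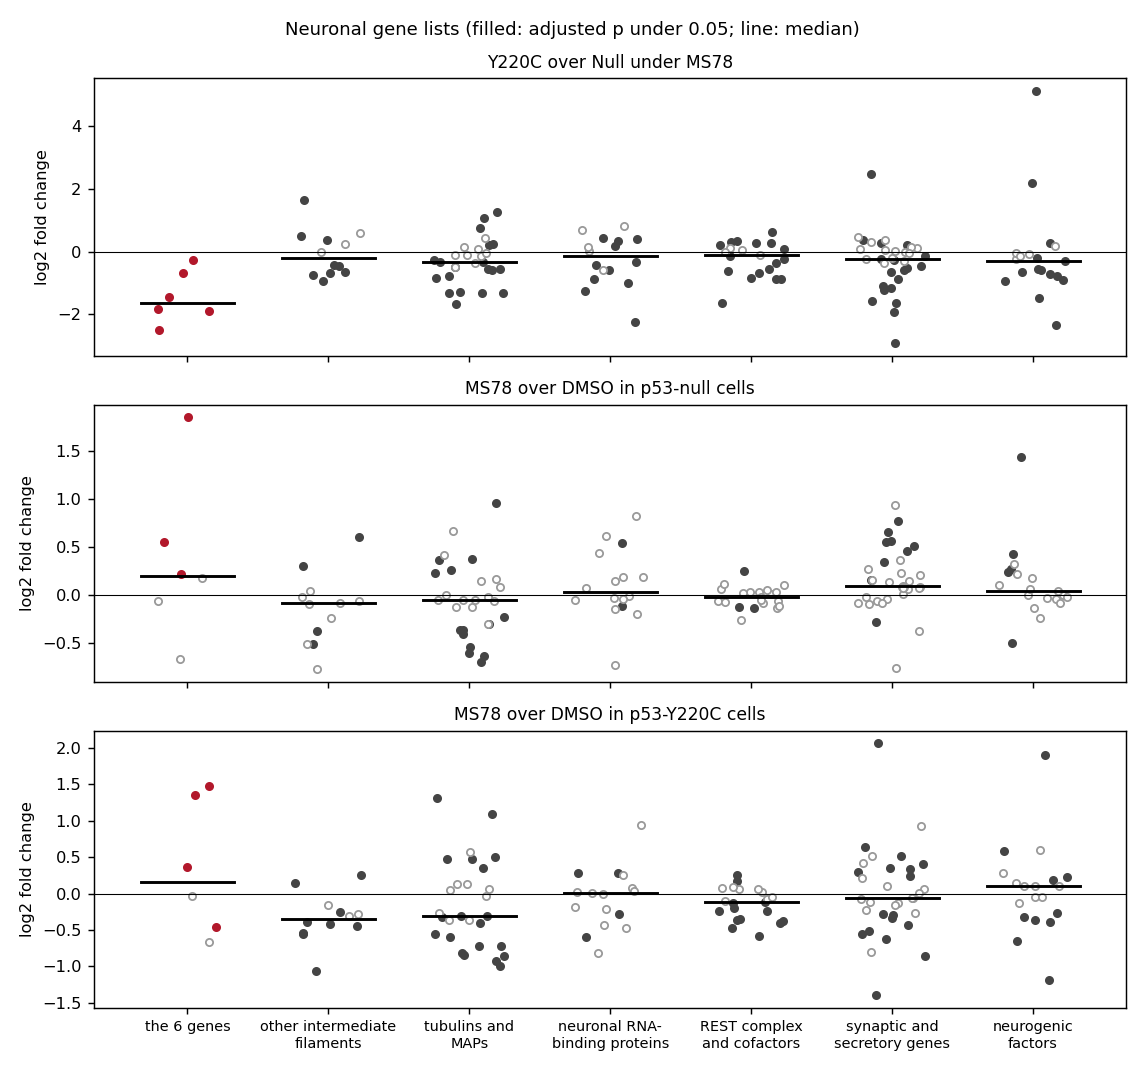
Log2 fold changes of the tested genes of each list in 3 comparisons, with filled points for an adjusted p under 0.05 and a bar at the median of the list. Under MS78 the 6 genes all lie below 0 in the upper panel with a median of -1.64, while the other lists spread to both sides of 0 with medians of -0.11 to -0.33. The 6 were selected for being lower in untreated cells of the same Y220C line, so nothing is read from their distance to the lists.

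Markers of other cells were set beside these results. Over all tested genes, 30.7% were higher and 31.2% lower in Y220C MS78 than in Null MS78, the shares to set beside the counts between the lines. Of 13 tested leukocyte markers, 0 were higher and 3 lower in Y220C MS78 than in Null MS78, and their part in the neuronal results is described only by the values within the libraries with and without PTPRC reads given above. Under MS78 against DMSO, 1 leukocyte marker was higher in Y220C cells and 2 in null cells, with median log2 fold changes of 1.75 and 1.77. Over all tested genes, 24.9% were higher in Y220C cells and 14.8% in null cells. Of 4 tested epithelial markers 1 was higher, and of 4 tested fibroblast and endothelial markers 3 were higher, in Y220C MS78 than in Null MS78, at summed levels of at most 7.20 and 6.31 CPM in Y220C MS78. Of 3 tested glial markers, OLIG2 and MBP were higher and CNP lower, OLIG2 with 3.26 CPM in Y220C MS78 against 0.102 CPM in Null MS78. The second value is under the floor of 3 reads. OLIG2 thus passed the filter on low counts only through groups where it was higher, and its call is given as a description. Of 13 mitochondrially encoded genes, which move with RNA quality and cell state, 10 were higher and 0 lower in Y220C MS78 than in Null MS78 (median 0.30), at a summed level of 35338 to 39843 CPM against 28899 to 32890.1 CPM, and their part in the results was not tested.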

How the data were processed

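The authors deposited a transcript table for each of 16 libraries with estimated counts (expected counts) and TPM. Per the submitters' processing notes the build was hg38 and FastQC 0.11.8 was run. For the quantifier, its annotation and its strand setting the sources used here give nothing. Of 197653 transcripts per table, 193348 (97.8%) matched GENCODE 29. Estimated counts were summed per gene and rounded. Rows without a match held 0.278% to 0.325% of reads and were left out. Genes under edgeR's default filter were removed, which left 15687. A single fit of the 4 groups used edgeR 4.0.16 (TMM factors, quasi-likelihood test, Benjamini-Hochberg adjustment over all tested genes, threshold 0.05) in R 4.3.3. Alternatives were DESeq2, other filters and scalings, length-scaled TPM, the replicate block, the PTPRC libraries and leaving out each library. The fitting code was tested on simulated data. Standard errors and 95% intervals are approximate, from the test statistic. The members and the gene lists were chosen with earlier results of these data known. List genes were named by a rule of at most 4 per list and comparison, past the threshold, at 1 CPM or more, by size of change. Replicates of a group differed beyond sampling noise, with a mean chi-square per gene of 2.52 to 10.96, and each was counted once. Same-numbered libraries deviated together between Y220C MS78 and Null MS78 (r 0.150 to 0.531 in 4 of 4 pairs), which met the rule for pairing, and less so between Y220C DMSO and Null DMSO (r -0.0568 to 0.452, 3 of 4 pairs over 0.1). The values reported come from the fit without a block, and the block was an alternative. Same-numbered libraries did not deviate together between MS78 and DMSO (r -0.496 to -0.0674 in Y220C and -0.502 to -0.0419 in null cells). The check of the labels by the level of the introduced gene is not reported here.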

Additional observations from a re-analysis of the deposited data

Results flagged for a closer look

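The response of NEFH to MS78 differed between the lines, with a Y220C response lower than the null response by an interaction term of -0.40 on the log2 scale (adjusted p = 0.00126, edgeR quasi-likelihood test). All 4 Y220C MS78 libraries were below all 4 Y220C DMSO libraries, whereas the null groups overlapped. The response of INA also differed, by -0.19 (adjusted p = 0.0103). INA was higher under MS78 in 4 of 4 libraries of both lines. Both interaction terms contain the DMSO difference on which the genes were selected and are not independent of it.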

How the results depend on the processing

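Of the values of the 6 genes under planned settings other than leaving out a library, 213 kept their side of the threshold. A call was lost in 14 and gained in 7. Of those without 1 library, 374 kept their side of the threshold, 5 lost and 5 gained a call. No called change turned sign, but uncalled ones could. The log2 fold change of NEFL for MS78 in Y220C cells, -0.67 in the fit reported, ran from -1.02 to 1.19 over the settings. For the other genes named by rule, 991 kept their side of the threshold, 89 lost and 1 gained a call without leaving out a library. With length-scaled TPM, 2839 genes were called for MS78 in null cells and 2745 for the interaction, against 4402 and 4197 in the fit reported. Among the libraries with PTPRC reads the counts were 2346 and 1870, and the interaction calls of NEFH and INA were lost while TUBB3 gained one, which made 1 of the 6, against 2. Among those without, 4184 genes and 3 of the 6 were called between the lines under MS78, against 9699 and 6, with 1070 genes for MS78 in null cells, 3490 for MS78 in Y220C cells, against 7611, and 411 genes and 0 of the 6 for the interaction; these subsets hold fewer samples, down to 1 per group. With the replicate number as a block, TUBB3 gained an interaction call (-0.25, adjusted p = 0.0361), which made 3 of the 6, and no other call of the 6 changed. A block within the 8 MS78 libraries, chosen after seeing the data, called 6 of the 6, and leaving out DMSO libraries from the selecting comparison, likewise chosen later, left 5 of the 6 lower without overlap. Counts of 1 to 10 reads limit NEFL and NEFM.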
